A study of Mus musculus with 6 samples.

Results

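The collagen genes were taken as every listed gene whose symbol is Col, a number, the letter a and a number, which gave 44 of the 19465 genes in the count tables of all 6 brain sections. By the structure of their proteins they fall into 11 fibrillar collagens, 6 chains of the basement membrane network, 3 short-chain network chains, 6 beaded filament chains, 9 fibril-associated collagens, 4 transmembrane collagens, 2 multiplexins and 3 others. The choice used the symbol alone and no measured value.

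Formalin-fixed, paraffin-embedded coronal brain sections of untreated male C57BL/6J mice, the wild-type inbred strain, were measured with 10x Genomics Visium, in which probe pairs hybridized to mRNA are counted as unique molecular identifiers (UMIs) in an array of spots that each cover several cells. There were 2 sections, labelled as biological replicates, at each of 3 ages, which were postnatal day 21 (P21, bred in house), adult (12 to 15 weeks) and aged (28 months). The P21 and adult sections lay directly on Visium v1 slides, whereas the aged sections were transferred onto Visium v2 slides by the CytAssist instrument, with a changed probe design per the study's methods. Age and slide version therefore cannot be told apart in aged vs. adult, and both age comparisons share the 2 adult sections.

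Collagens are extracellular proteins wound from several polypeptide chains, and cells hydroxylate, trim and cross-link them before they form fibrils, sheets or filaments. In the brain, fibrillar collagens lie mainly in the meninges, the membranes that cover the brain surface, and around larger vessels, where fibroblasts make them, while type IV collagen forms the basement membranes of blood vessels throughout the tissue. Several transmembrane and fibril-associated members are made by neurons or glia.

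The sections held 2917 to 3679 spots after filtering and 42422997 to 106783660 UMIs. Spots were clustered again without the collagen and collagen pathway genes, and the cluster whose fixed panel of meningeal fibroblast markers stood out (all 12 panel genes raised) is called the meningeal zone. It held 206 and 195 spots at P21, 192 and 192 in adult and 120 and 156 in aged sections, with median depths of 6072 to 12460 UMIs per spot. Between 68.2% and 89.1% of its spots lay in the 3 outermost rings of spots, and between 49.0% and 67.9% in the outermost. Conversely, it made up 70.6% and 57.1% of the outermost ring at P21, 48.5% and 54.1% in adult and 43.8% and 55.8% in aged sections. The pooled neural zone joined the reticular thalamus and 6 regions abbreviated below as CTX for cortex, HP for hippocampus, TH for thalamus, HY for hypothalamus, STR for striatum and FT for fiber tracts, with 2376 to 3097 spots per section. A further 316 to 403 spots per section, in clusters that no marker panel named, belonged to no zone. Levels are given in CPM, a gene's UMIs in a zone and section scaled to the same total of UMIs for every zone and section, and because each gene has its own probes, CPM of different genes were not compared as abundance. Calls were made with edgeR's quasi-likelihood test, at a fold over 1.5 together with a Benjamini-Hochberg adjusted p below 0.05. Statements below that groups of sections did or did not overlap describe the values shown and add no test. The share of all genes without overlap was not counted.

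For the promoters of collagen genes, 35 of the 44 members had an entry in the set of RefSeq promoters used here (GRCm38.p6). The other 9 were not searched, and their absence from this set does not mean that RefSeq lacks them. Shown here are the 250 bases before the RefSeq start of 3 genes, the fibrillar Col3a1 and the transmembrane Col23a1 and Col25a1, because these were called higher at P21 in both zones and their stretch overlaps no annotated exon. Capitals mark the motifs searched on both strands, namely the box known as CCAAT, the promoter element with the letters TATAAA, and the box of the letters GGGCGG. The Col3a1 stretch is chr1:45311288-45311537, the Col23a1 stretch chr11:51289670-51289919 and the Col25a1 stretch chr3:130180595-130180844, all on the plus strand. GENCODE places the start of Col25a1 further upstream, with the gene spanning chromosome 3 from 130131501 to 130599877, so the stretch shown for it lies inside that longer gene model.
Col3a1: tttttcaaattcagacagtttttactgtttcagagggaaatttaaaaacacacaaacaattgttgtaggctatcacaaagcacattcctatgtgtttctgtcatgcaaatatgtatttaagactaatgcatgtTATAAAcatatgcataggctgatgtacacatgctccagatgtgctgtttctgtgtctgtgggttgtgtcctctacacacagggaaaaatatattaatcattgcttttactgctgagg
Col23a1: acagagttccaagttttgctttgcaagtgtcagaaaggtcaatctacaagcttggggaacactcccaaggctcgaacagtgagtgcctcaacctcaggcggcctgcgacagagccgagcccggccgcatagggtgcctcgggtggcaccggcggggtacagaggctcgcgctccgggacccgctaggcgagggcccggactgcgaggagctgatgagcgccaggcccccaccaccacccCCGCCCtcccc
Col25a1: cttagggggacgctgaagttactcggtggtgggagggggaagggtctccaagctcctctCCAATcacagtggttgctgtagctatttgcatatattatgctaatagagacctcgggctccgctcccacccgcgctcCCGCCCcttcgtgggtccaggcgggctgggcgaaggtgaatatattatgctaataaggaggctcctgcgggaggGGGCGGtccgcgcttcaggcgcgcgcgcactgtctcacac
The Col3a1 stretch held 1 TATAAA and had a GC content of 35.2%, whereas Col23a1 and Col25a1 had 66% and 60.4% with 1 and 2 GGGCGG, and Col25a1 also held 1 CCAAT. Of the 35 members listed, 5 held TATAAA, 13 held CCAAT and 21 held GGGCGG, against 12.4%, 33.8% and 32.7% of all 32851 promoters of the same length. A member with more than 1 entry (Col6a2, Col9a1 and Col18a1) counted if any of its entries held the motif, whereas all promoters were counted singly. Col4a1 (chromosome 8, 11198423 to 11312826, minus strand) and Col4a2 (chromosome 8, 11312805 to 11449287, plus strand) start head to head, and their annotated first bases overlap by 22 bases (GENCODE vM21 on GRCm38).

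Type I and type III collagen genes marked the brain surface most clearly. The CPM of Col1a1, a chain of type I collagen, was 263 and 245 in the meningeal zone against 17.9 and 18.4 in the neural zone at P21, 92.4 and 87.2 against 7.0 and 4.87 in adult, and 43.7 and 44.9 against 2.29 and 2.77 in aged sections. Every meningeal value lay above every neural one. The log2 ratio of the 2 zones (with 1 CPM added to each) averaged 3.72 ± 0.13 (SD, n = 6 sections) for Col1a1, 3.68 ± 0.37 for Col1a2 and 3.53 ± 0.39 for Col3a1. Next in order came Col13a1, a transmembrane collagen, at 2.85 ± 0.33, Col4a5, a basement membrane chain, at 2.43 ± 0.27, and Col5a2, a chain of the type V collagen that nucleates fibrils, at 2.29 ± 0.37. The differences among the first 3 genes of this order were smaller than the SDs of Col1a2 and Col3a1.

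For 28 of the 44 members the ratio was above 0 in 6 of 6 sections. The same count was not made over all genes, so no background share stands beside it. At the other end, Col20a1 was lower in the meningeal zone in 6 of 6 sections, with a mean log2 ratio of −0.25, and Col11a1, a minor fibrillar collagen of cartilage, had the lowest mean at −0.57 but lay above 0 in 2 sections. Col9a3, a type IX chain, had a mean of 0.27 and Col2a1, the cartilage fibrillar collagen, of −0.10. The zones are clusters of the same spots, so these ratios are a description and carry no test.

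**Figure D1:**
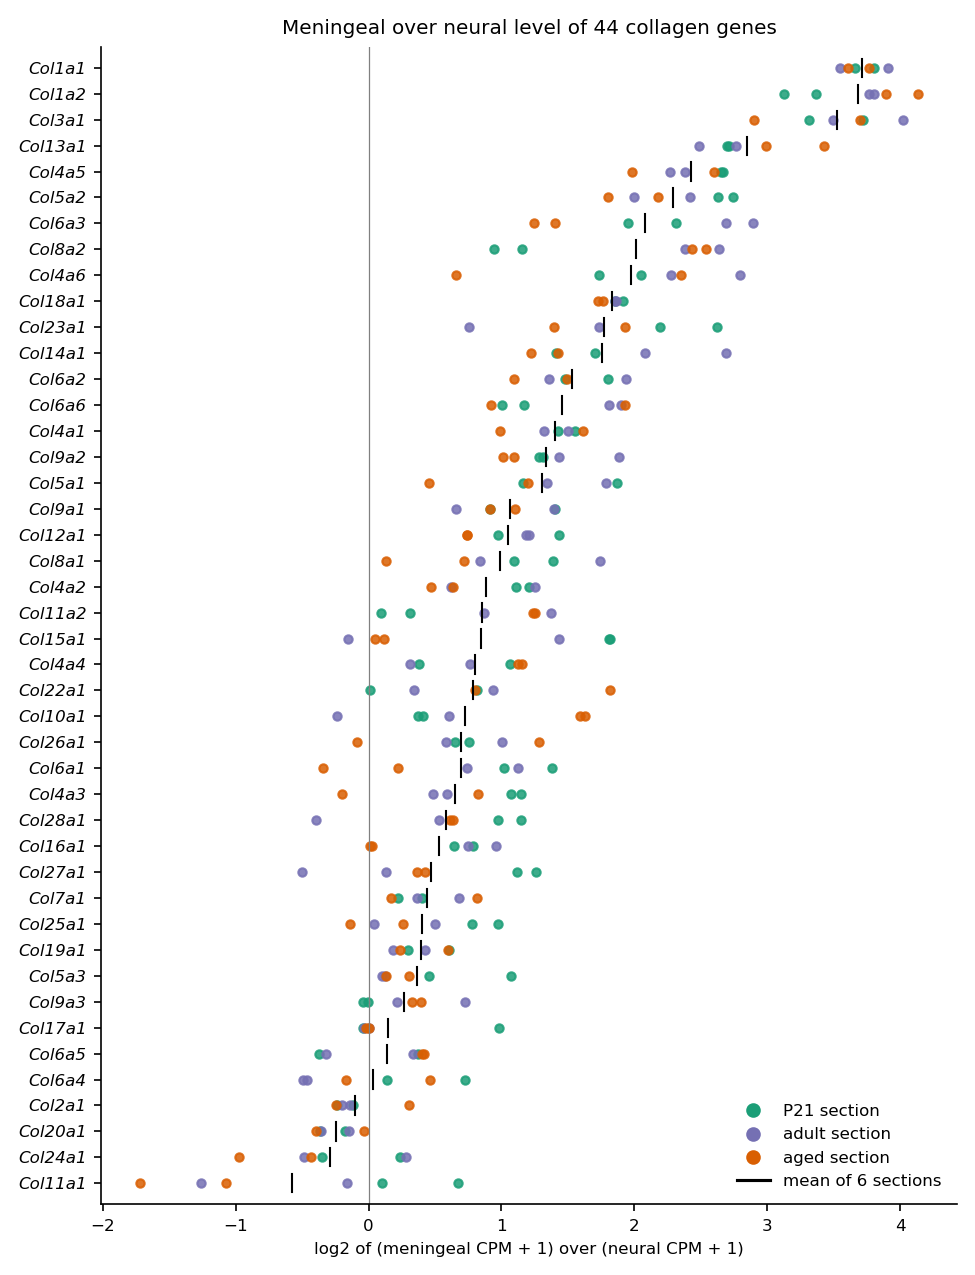
Log2 ratio of meningeal over neural CPM, with 1 CPM added to each, for the 44 collagen genes (one line of points per gene); each point is 1 section, coloured by age, and the black bar is the mean of 6 sections. Col1a1, Col1a2 and Col3a1 head the order at means of 3.72, 3.68 and 3.53, and Col11a1 ends it at −0.57.

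To test the same contrast without using expression to pick spots, the outermost ring of spots at the section edge was compared with the interior, from the fourth ring inwards, with each section as its own block. Of 42 members tested, 21 were higher at the edge and 0 lower, where 9.46% of all 14268 genes were called higher and 1.54% lower. Among those lower at the edge 0 members had an unadjusted p under 0.05 with edgeR, and DESeq2 called 0. With the study's detection filter, which leaves fewer genes to test, 10 members were called. The median log2 change of the tested members was 0.75, against −0.018 for all genes tested. The CPM of Col1a2, the second chain of type I collagen, was 242 and 160 at the P21 edge, 80.2 and 81.4 at the adult edge and 106 and 107 at the aged edge, against 7.42 to 38.7 in the interiors. No edge value overlapped an interior one, and the log2 change was 2.72 with a standard error of 0.23 (adjusted p = 1.43e-05). Col1a1 changed by 2.75 ± 0.18 (standard error) and Col3a1 by 2.56 ± 0.23 on the same scale.

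The edge calls reached every class but the small group of others. They took in 5 of 11 fibrillar members, 3 of 6 basement membrane chains, 1 of the 2 short-chain members tested, 3 of 6 beaded filament chains, 5 of 9 fibril-associated members, 2 of 3 transmembrane members tested and both multiplexins. Among the basement membrane chains, Col4a6 was higher by 1.99 ± 0.24 and Col4a5 by 1.90 ± 0.20, while Col4a1, the main chain of capillary basement membranes, was higher by 0.68 ± 0.10, and its partner Col4a2 changed by 0.41 ± 0.08, under the fold threshold. Col13a1 was higher by 2.44 ± 0.24, Col6a3, a type VI chain, by 1.93 ± 0.21 and Col14a1, a fibril-associated collagen, by 1.79 ± 0.25. Col6a1 (0.12 ± 0.19), Col9a3 (0.04 ± 0.14) and Col19a1 (0.10 ± 0.14) were not called. The 21 members not called ranged from −0.26 to 0.89.

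Markers of several cell types, of the surface and of the tissue beneath, moved with this contrast, and their part in the collagen result was not tested. All 11 meningeal fibroblast markers were higher at the edge (median log2 change 3.41), as were 6 of 6 smooth muscle markers, 6 of 6 endothelial markers tested, 5 of 5 border macrophage markers tested and 4 of 4 erythrocyte markers. With DESeq2, 4 of 5 astrocyte and 2 of 5 microglia markers were also called higher at the edge, and 3 of 5 oligodendrocyte markers lower. In these spot sums, fewer cells of a type and less RNA per cell cannot be told apart.

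**Figure D2:**
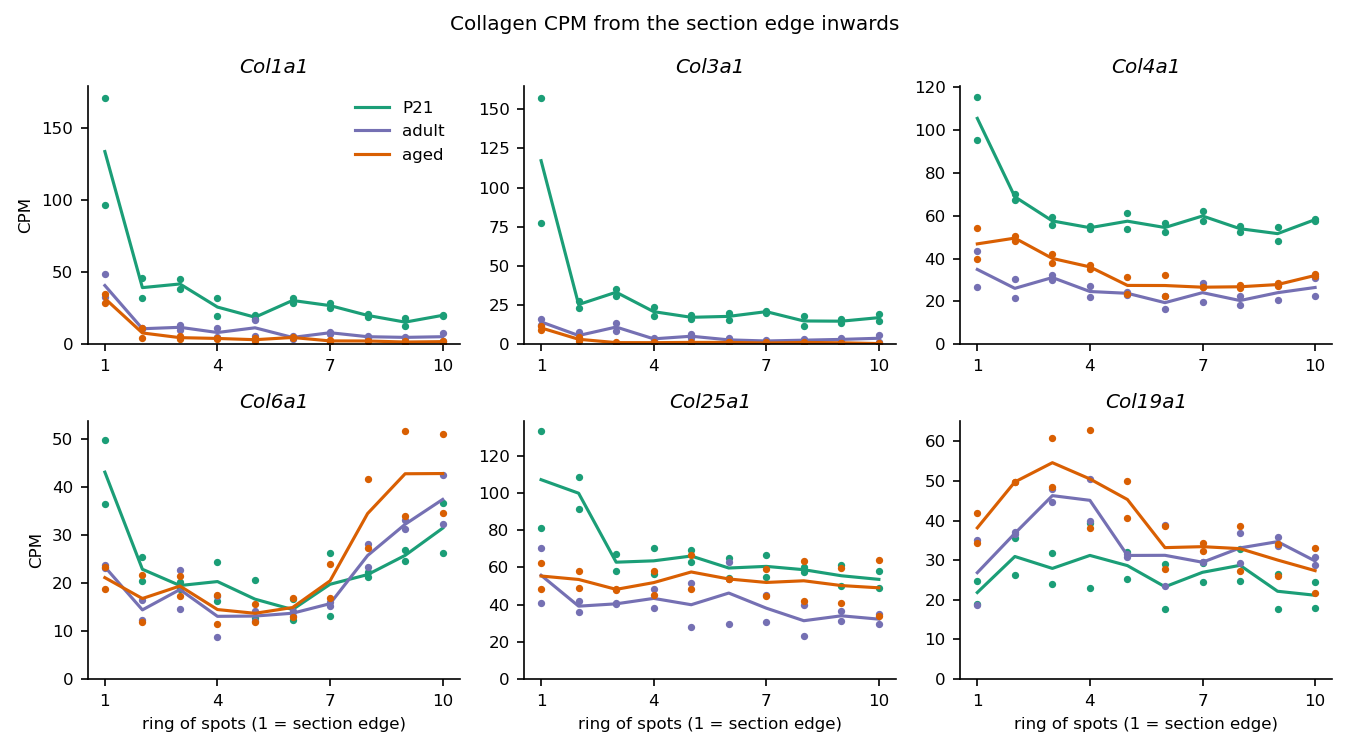
CPM of 6 collagen genes (vertical axes) by ring of spots from the section edge inwards (horizontal axes, ring 1 to 10); points are single sections and lines the mean of 2 sections per age. Col1a1 and Col3a1 drop after ring 1, where P21 Col1a1 reached 171 and 96.8 CPM, whereas Col6a1 climbs again towards ring 10 and Col19a1 peaks a few rings in.

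The P21 vs. adult comparison asks which collagens were still higher in the juvenile brain. In the meningeal zone 30 of the 44 members had enough UMIs to be tested, and 11 were higher at P21 and 0 lower, against 2.5% of all 12086 genes called higher and 2.13% lower. In the lower direction, edgeR gave 1 member an unadjusted p under 0.05 and DESeq2 called 0. The median log2 change of the tested members was 0.51, against 0.011 over all genes tested. The summed CPM of all 44 members was 1972 and 1840 at P21 and 1028 and 1011 in adult sections. Fibrillar members gave 973 and 849 CPM of it at P21 and 424 and 438 in adult sections, a share of counts and not of abundance.

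Among the fibrillar collagens, Col3a1, which forms fibres with type I collagen, had 212 and 165 CPM in the P21 meningeal zone and 45.3 and 58.8 in the adult. Both P21 sections lay above both adult ones, a log2 change of 1.91 with a standard error of 0.16 (3.75-fold, adjusted p = 4.29e-08). Col1a1 stood at 263 and 245 CPM against 92.4 and 87.2, which was 2.86-fold higher (adjusted p = 2.12e-08). Col1a2 stood at 361 and 310 CPM against 201 and 182 and changed by 1.77-fold (adjusted p = 4.88e-05). The groups did not overlap for either chain. Col5a2 had 39.5 and 42.7 CPM at P21 and 13.4 and 16.5 in adult sections (2.79-fold, adjusted p = 0.000178). Col11a2, a minor fibrillar chain, overlapped between the ages, with 46.5 and 40 CPM at P21 and 43.4 and 58.1 in adult sections, and was not called.

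The paired type IV chains of vascular basement membranes were both higher at P21. Col4a1 had 164 and 153 CPM in the P21 meningeal zone and 69.3 and 56.1 in the adult, a log2 change of 1.34 ± 0.15 (adjusted p = 2.49e-06). Col4a2 had 169 and 171 CPM against 69.7 and 92.4, a change of 1.10 ± 0.14 (adjusted p = 1.02e-05). In both chains the P21 sections lay clear of the adult ones. Col4a5 had 24.9 and 23.6 CPM against 13.4 and 10.6, and its call (1.01 ± 0.29, adjusted p = 0.037) was the only one of the 11 lost when either P21 or either adult section was left out. Of the 14 members not tested in this zone, Col4a3 and Col4a4 among them, no section exceeded 5.91 CPM.

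The calls also included multiplexin and transmembrane genes. Col15a1, a multiplexin of vessel basement membranes, had 29.2 and 32.8 CPM in the P21 meningeal zone against 6.47 and 12.5 in the adult (3.4-fold, adjusted p = 0.000635). Col23a1, a transmembrane collagen, had 70.4 and 89.9 CPM against 28.6 and 18.5 (3.26-fold, adjusted p = 4.51e-06). Col25a1, the transmembrane collagen found in amyloid plaques, had 94.7 and 109 CPM against 43.4 and 42.3 (2.37-fold, adjusted p = 6.08e-06). The P21 and adult sections did not overlap for any of these. Col9a3 completed the 11, with 70.1 and 78.8 CPM against 31.9 and 39.0 (2.13-fold, adjusted p = 0.000149), whereas its partner chain Col9a2 overlapped, at 60.8 and 55.1 against 62.4 and 40.3 CPM. The beaded filament chains Col6a1, Col6a2 and Col6a3 gave log2 changes of 0.38, 0.17 and 0.07, and none was called. The short-chain Col8a1 had 16.6 and 11.8 CPM against 8.78 and 14.5, Col18a1 23.9 and 26.3 against 16.6 and 15.8, Col13a1 16.6 and 16.4 against 13.9 and 16.5, and Col5a1 25.9 and 13.8 against 14.3 and 21.8, with no call. The 19 tested members not called ranged from −0.89 to 1.30 in log2 change.

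With the outermost ring of spots in place of the meningeal cluster, 8 of the 11 were again called, and Col15a1, Col25a1 and Col4a5 were not. The meningeal fibroblast markers went the other way, with a summed level of 1165 and 897 CPM at P21 and 1778 and 1574 in adult sections, and 6 of the 11 were lower at P21 and 0 higher. The ratio of summed collagen to summed fibroblast marker CPM was 1.69 and 2.05 at P21 and 0.578 and 0.642 in adult sections. These 11 markers belong to the panel that named the zone and were not left out of the clustering. Their level there therefore depends in part on how the spots were chosen. In the outermost ring, drawn by position, the ratio was 1.69 and 2.56 at P21 and 0.956 and 0.965 in adult sections. Erythrocyte markers were higher at P21 (4 of 4, 8722 and 3215 CPM against 1170 and 818), as were oligodendrocyte markers (5 of 5), while 5 of 6 smooth muscle markers were lower, and none of these lists had a gene at 0 in all sections. With DESeq2, 3 erythrocyte and 5 oligodendrocyte markers were called higher, and 1 smooth muscle and 5 fibroblast markers lower. The part of these cell types in the collagen result was not tested.

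**Figure D3:**
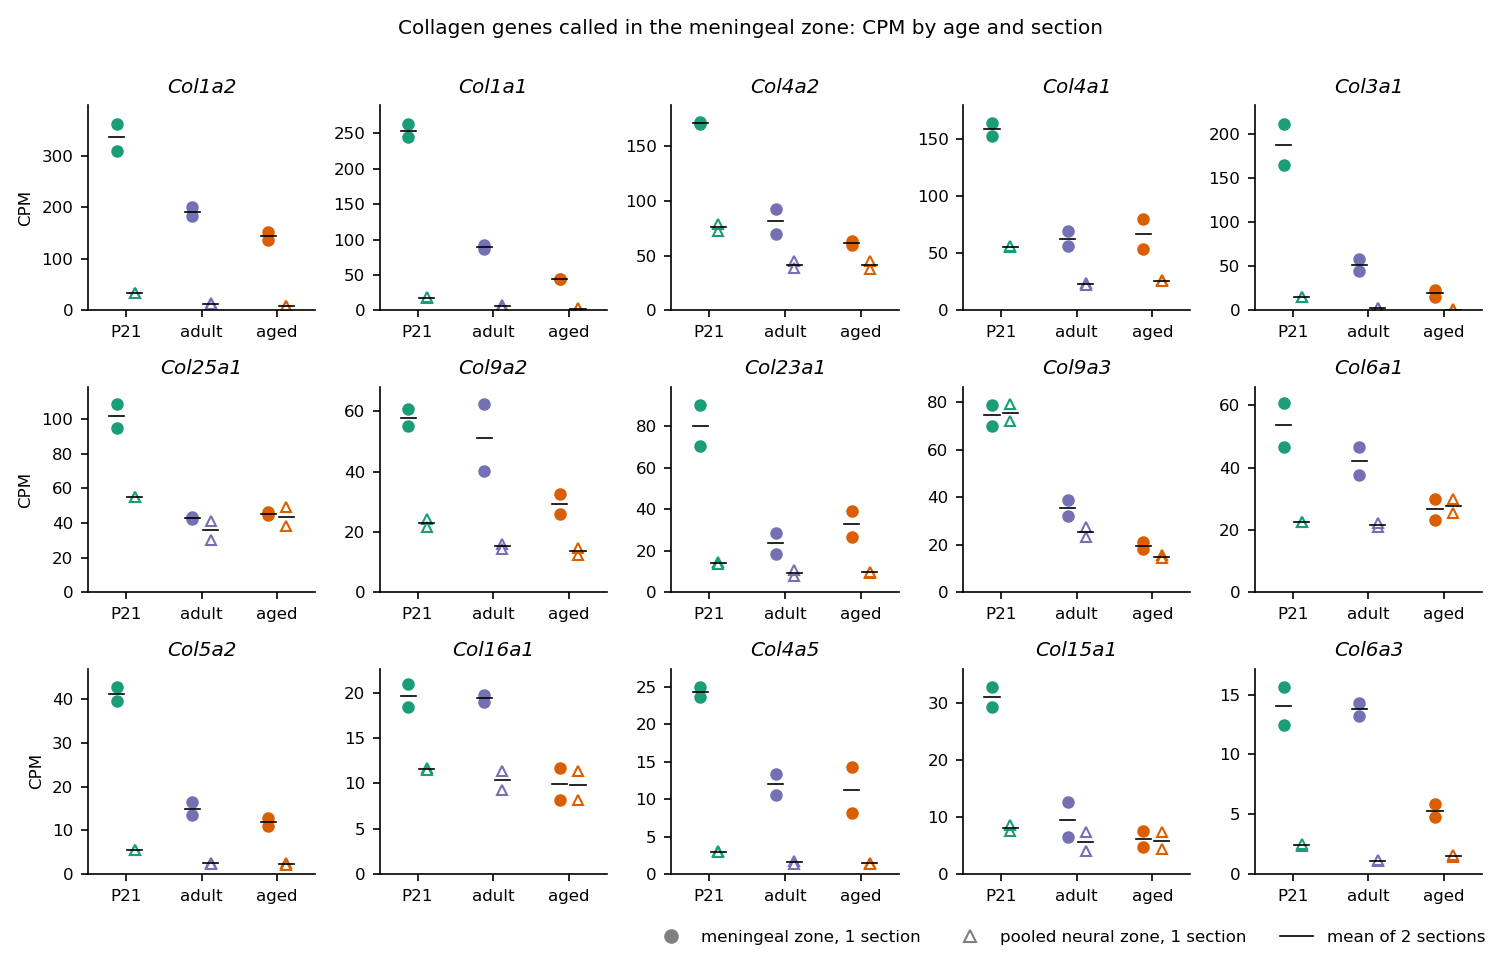
CPM (vertical axes, each from 0) of the 15 collagen genes called in the meningeal zone in either age comparison, at 3 ages; filled circles are meningeal and open triangles pooled neural values of 1 section each, and bars are means of 2 sections. Both P21 meningeal sections of Col3a1 (212 and 165 CPM) lie above the adult (45.3 and 58.8) and aged ones (15.7 and 22.7).

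Higher levels at P21 than in adult sections extended through the neural tissue. In the pooled neural zone 43 members were tested, all except Col17a1, an epidermal transmembrane collagen with 10 UMIs in the whole series, and 19 were higher at P21 and 0 lower, where 5.76% of all 17685 genes were higher and 2.43% lower. In the lower direction 1 member had an unadjusted p under 0.05 with edgeR, and DESeq2 called 0. Their median log2 change was 0.62, against 0.0037 over all genes tested, and 38 of the 43 were above 0. The summed CPM of all members was 561 and 566 at P21 and 342 and 322 in adult sections. The call count fell to 12 when P21 section 1 was left out, the more deeply sequenced P21 section, and to 11 with the study's detection filter, which leaves fewer genes to test.

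Col3a1 led here too, with 15.1 and 15.6 CPM in the P21 neural zone and 3.09 and 2.68 in the adult. The groups were far apart, a log2 change of 2.41 with a standard error of 0.17 (5.31-fold, adjusted p = 7.46e-06). Col1a1 had 17.9 and 18.4 CPM against 7.0 and 4.87 (3.06-fold, adjusted p = 6.48e-05) and Col1a2 34.2 and 34.6 against 13.9 and 12.1 (2.65-fold, adjusted p = 7.27e-06). Minor fibrillar genes followed, with Col5a2 at 2.27-fold, Col5a3 at 2.02-fold and Col11a2 at 1.65-fold, while Col11a1, Col24a1 and Col27a1 gave log2 changes of −0.11, −0.01 and −0.21 and were not called.

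The type IV chains of blood vessels followed. Col4a1 had 55.3 and 56.2 CPM in the P21 neural zone and 23.8 and 21.9 in the adult (2.44-fold, adjusted p = 2.44e-06). Col4a2 had 72.7 and 78.8 CPM against 45.0 and 38.3 (1.82-fold, adjusted p = 0.00016). For both, the P21 sections lay above the adult ones with a wide gap. Of 6 endothelial markers tested in this zone edgeR and DESeq2 called 0, with 3 higher at an unadjusted p under 0.05 (median log2 change 0.20), and of 6 pericyte markers both called 0, with 2 higher and 1 lower at that level (median 0.079). Col4a5 was higher at P21 by 0.93 ± 0.19 on the log2 scale, and Col18a1, the multiplexin from which endostatin is cleaved, by 0.69 ± 0.13.

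Fibril-associated and network genes completed the list. Col9a3 had 72.2 and 79.0 CPM in the P21 neural zone against 27.3 and 23.2 in the adult, 2.99-fold higher (adjusted p = 3.37e-06) with no overlap. Its partners Col9a1 and Col9a2 were higher at P21 by 2.43-fold and 1.52-fold, and Col20a1 by 2.42-fold, against adult levels of 1.47 and 0.835 CPM. Col6a3 (2.13-fold), Col8a2, a chain of the short-chain type VIII network (1.85-fold), Col26a1 (1.86-fold), Col23a1 (1.54-fold) and Col25a1 (1.54-fold) were also higher. In separate fits of the 6 regions Col9a1 had 0 calls in the 4 where it was tested. Col25a1 had 0 calls in the 6, with log2 changes of 0.20 to 0.94. The HY, the region of its highest mean level, held 699 and 606 of 3025 and 2706 neural spots at P21. In adult sections the HY held 370 and 446 of 2376 and 2695, and the part of this difference in the Col25a1 call was not tested. Oligodendrocyte markers moved in the same direction in this zone, at 22709 and 24709 CPM summed at P21 against 12102 and 11745 in adult sections, with 5 of 5 called higher, as did 4 of 4 erythrocyte markers, and their part in the collagen result was not tested.

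**Figure D4:**
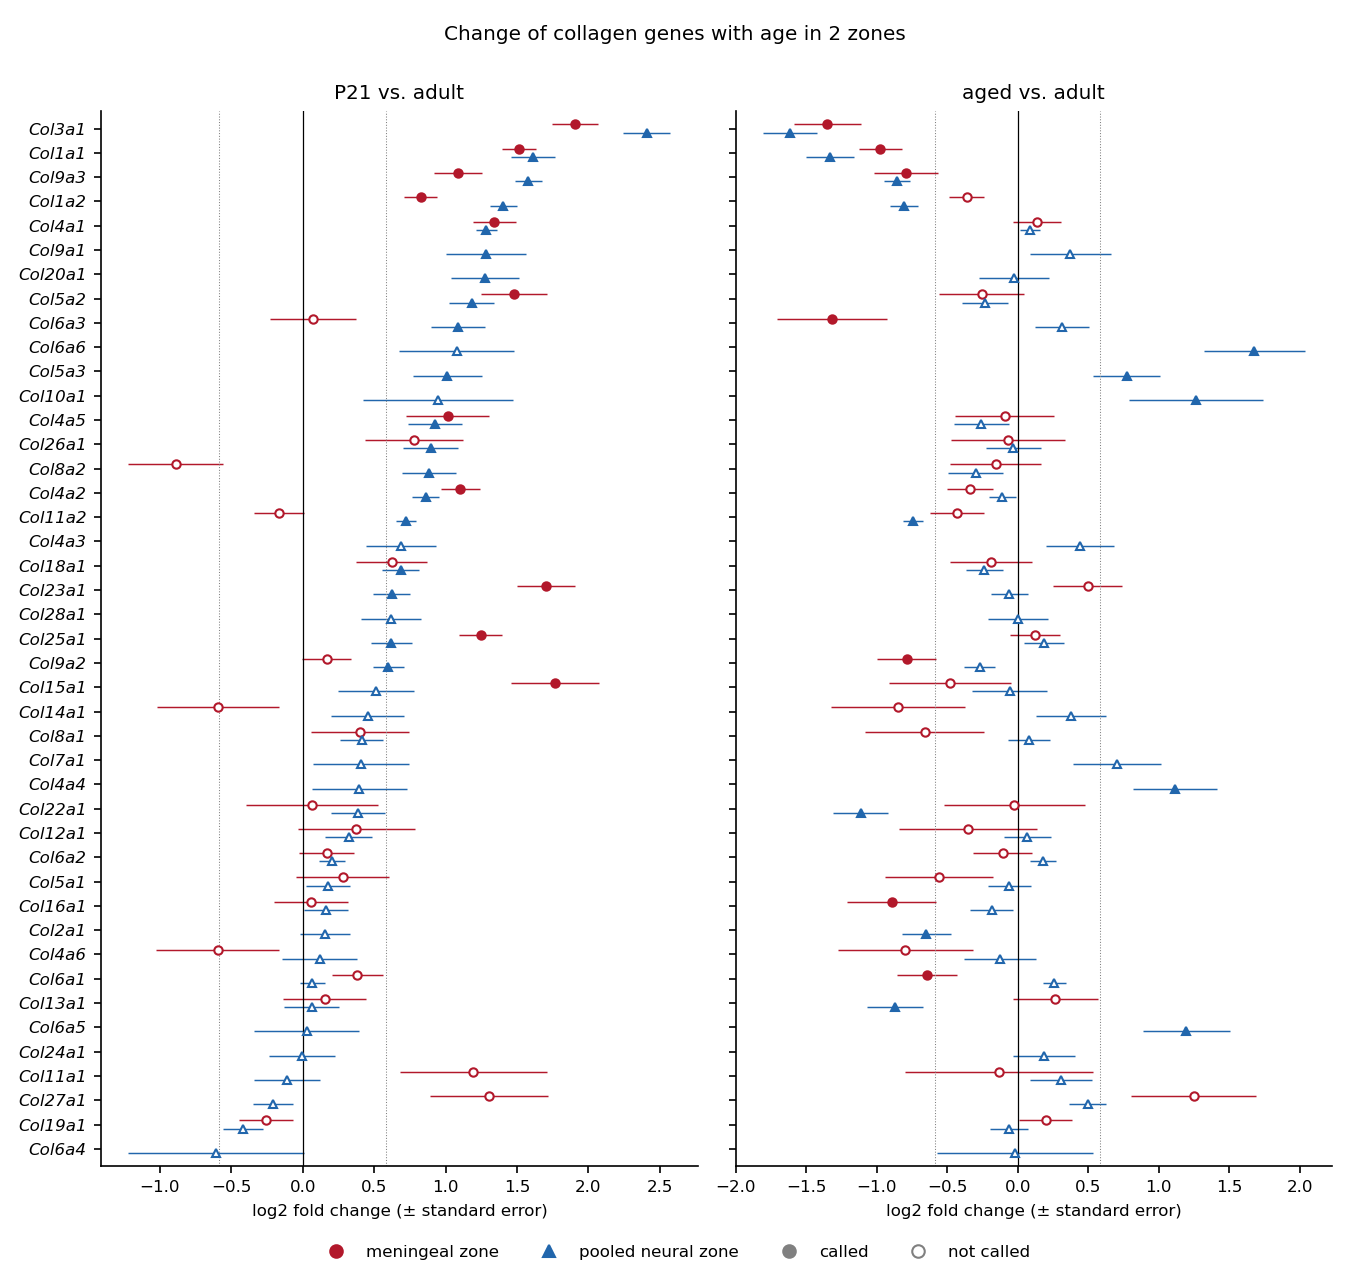
Log2 fold change with its standard error (horizontal axes) of the tested collagen genes in P21 vs. adult (left) and aged vs. adult (right); circles are the meningeal and triangles the pooled neural zone, filled where called, and dotted lines mark a fold change of 1.5. Filled symbols at P21 all lie to the right of 0, up to 2.41 for Col3a1 in the neural zone, and in aged sections the meningeal ones all lie to the left, down to −1.35.

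Separate fits of the 6 neural regions showed which of these changes ran through all 6. Of 40 members tested in at least 1 region, 23 were called in at least 1 at P21, with 22 higher and 1 lower, against 18.6% of all 14663 genes (11.6% higher, 7.07% lower). Col1a1, Col1a2, Col3a1, Col4a1, Col4a2 and Col9a3 were higher at P21 in all 6. Log2 changes ran from 1.92 in the HY to 3.05 in the HP for Col3a1, from 1.07 in the TH to 2.63 in the HP for Col1a1, and from 1.01 in the HP to 1.47 in the STR for Col4a1. The lowest regional change among these 6 genes was 0.64, for Col4a2 in the HP. Col11a2 was higher at P21 in every region but the HP, Col23a1 in the HP, TH, HY and FT, and Col26a1, a collagen-like secreted protein, in the CTX, HP, TH and FT. The count over the regions was 11 without P21 section 1, 13 without adult section 1 and 15 without adult section 2.

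In the TH 18 of 38 tested members were higher at P21, beside 4.97% of all genes there. The HP had 13 of 33 (5.65% of all genes higher), the FT 13 of 36 (5.7%), the CTX 10 of 38 (4.44%), the HY 10 of 37 (2.25%) and the STR 7 of 24 (2.77%). DESeq2 called 10 higher in the TH, 7 in the HP, 9 in the FT, 9 in the CTX, 10 in the HY and 5 in the STR. A cluster led by Ctxn3, Cbln1 and Calb2 held 174 and 201 of 663 and 617 TH spots at P21. Adult sections had 102 and 40 of 443 and 510 TH spots in it, and the part of this difference was not tested. The exception in direction was Col19a1, a fibril-associated collagen made by neurons. It was the 1 member called lower in each of 2 regions, beside 1.66% of all genes in the HY and 4% in the FT. It had 11.6 and 9.73 CPM in the P21 HY against 24.2 and 16.8 in the adult, a log2 change of −0.93 (adjusted p = 0.0278), and in the FT it had 13.7 and 14.6 against 26.0 and 23.7 (−0.75, adjusted p = 0.00333). In the CTX, where its level was highest, P21 sections at 44.5 and 41.7 CPM lay just below adult ones at 49.0 and 47.0 (−0.15, adjusted p = 0.428).

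Whether a P21 change differed between the zones was tested as an interaction with each section as a block, called at an adjusted p under 0.05 alone. Of 43 members tested, 3 differed, all with a negative difference of the meningeal minus the neural change, where 0.562% of all 16019 genes differed (0.112% with a higher and 0.449% with a lower meningeal change). Col1a2 was 1.77-fold higher at P21 in the meningeal and 2.65-fold in the neural zone, a log2 difference of −0.64 with a standard error of 0.12 (adjusted p = 0.0162). Col8a2 had 8.97 and 7.22 CPM in the P21 meningeal zone against 18.0 and 12.5 in the adult, and 3.47 and 3.27 against 2.06 and 1.60 in the neural zone, a difference of −1.82 ± 0.40 (adjusted p = 0.0405). For Col11a2 the difference was −0.95 ± 0.19 (adjusted p = 0.0216). For Col15a1 (1.22 ± 0.39, adjusted p = 0.276) and Col23a1 (1.0 ± 0.27, adjusted p = 0.138) the difference was not called. Of 11 fibroblast markers, 3 were called here, all lower in the same sense, and their part in the result was not tested.

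These 3 interaction calls depended on the settings. With the outermost ring and the interior in place of the clusters edgeR called 0 of the 43, and the differences were −0.0063 for Col8a2, −0.59 for Col11a2 and −0.034 for Col1a2. In the outermost ring Col8a2 changed by 0.30 at P21 (adjusted p = 0.804), where the meningeal cluster had given −0.89. DESeq2 on the clusters called 1, the count was 1 without P21 section 2, and it was 7 without either aged section.

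The aged vs. adult comparison ran the other way in the meningeal zone. Of the 30 members tested, 7 were lower in aged sections and 0 higher, beside 5.09% of all 12086 genes lower and 7.47% higher. In the higher direction 1 member had an unadjusted p under 0.05 with edgeR, and DESeq2 called 0. The median log2 change of the tested members was −0.35, against −0.0075 over all genes tested, and 24 of the 30 were below 0. The summed CPM of all 44 members was 730 and 841 in aged against 1028 and 1011 in adult sections.

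Col1a1 and Col3a1 had the lowest adjusted p of the 7. Col3a1 had 15.7 and 22.7 CPM in the aged meningeal zone against 45.3 and 58.8 in the adult, a log2 change of −1.35 with a standard error of 0.24 (adjusted p = 0.00027). Col1a1 had 43.7 and 44.9 CPM against 92.4 and 87.2 (−0.98 ± 0.15, adjusted p = 9.16e-05), again with no overlap. Col1a2 had 137 and 152 CPM against 201 and 182, and its change of −0.36 (adjusted p = 0.0467) stayed under the fold threshold. Type IV chains did not pass the test, with Col4a1 at 54.0 and 79.9 CPM in aged against 69.3 and 56.1 in adult sections (0.14 ± 0.17) and Col4a2 at −0.34 ± 0.16.

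The other 5 calls were type VI, type IX and other fibril-associated genes. Col6a3 had 4.78 and 5.83 CPM in the aged meningeal zone against 14.3 and 13.2 in the adult (−1.32 ± 0.39, adjusted p = 0.0201) and Col6a1 30.1 and 23.3 against 46.7 and 37.6 (−0.64 ± 0.21, adjusted p = 0.0389). Col9a2 had 26.0 and 32.7 CPM against 62.4 and 40.3 (−0.79 ± 0.21, adjusted p = 0.00929) and Col9a3 21.2 and 18.1 against 31.9 and 39.0 (−0.79 ± 0.22, adjusted p = 0.0152). Col16a1, a fibril-associated collagen, had 8.20 and 11.7 CPM against 18.9 and 19.8 (−0.90 ± 0.31, adjusted p = 0.0489). None of these overlapped between the ages. Col23a1 at 26.7 and 39.1 CPM in aged sections and Col25a1 at 44.4 and 46.1 were not called against the adult, whose values were given above.

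The aged meningeal calls depended on how the zone was drawn. With the outermost ring of spots in its place 0 of the 7 were called by edgeR, and DESeq2 in the cluster called Col1a1 and Col3a1 alone of them. In the ring, Col1a1 had 28.8 and 34.8 CPM in aged against 49.0 and 32.6 in adult rings (−0.38, adjusted p = 0.425), Col3a1 changed by −0.45 (adjusted p = 0.554), and Col1a2 (0.39) and Col9a3 (0.16) turned positive. In the cluster, the count was 3 without adult section 1 and 4 without adult section 2, without aged section 1 or without aged section 2, with Col3a1 and Col1a1 called each time.

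Marker genes of other cells also moved in this zone. Meningeal fibroblast markers summed to 1433 and 1746 CPM in aged and 1778 and 1574 in adult sections, and edgeR and DESeq2 called 0 of 11 (2 higher and 3 lower at an unadjusted p under 0.05). Oligodendrocyte markers were lower in aged sections (5 of 5, 2315 and 2725 CPM against 7372 and 8649), as were 4 of 7 choroid plexus markers tested (165 and 172 CPM against 1436 and 967 over the whole list) and 3 of 6 smooth muscle markers. With DESeq2, 5 oligodendrocyte, 2 choroid plexus and 1 smooth muscle markers were called lower. Their part in the collagen result was not tested, and neither was that of the slide version.

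In the pooled neural zone the aged sections gave calls in both directions. Of 43 members tested, 5 were higher and 8 lower, beside 22.8% of all 17685 genes higher and 4.65% lower, so the share of collagens called higher was below the background and the share called lower above it. DESeq2 called 2 higher and 8 lower, and without aged section 2 the higher Col10a1, Col4a4 and Col5a3 were not called. The median log2 change was −0.024, against 0.042 over all genes tested. Summed over all members the level was 315 and 343 CPM in aged and 342 and 322 in adult sections.

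The genes that fell were led by the interstitial fibrillar collagens. Col3a1 had 1.23 and 0.825 CPM in the aged neural zone against 3.09 and 2.68 in the adult, a log2 change of −1.62 with a standard error of 0.19 (adjusted p = 0.000141). Col1a1 had 2.29 and 2.77 CPM against 7.0 and 4.87 (−1.33 ± 0.17, adjusted p = 0.000178). Col1a2 had 8.29 and 7.72 CPM against 13.9 and 12.1 (−0.81 ± 0.10, adjusted p = 0.000147). No aged value reached an adult one in these genes. Col11a2 fell from 23.4 and 21.9 to 14.3 and 14.8 CPM (−0.74 ± 0.07), Col9a3 from 27.3 and 23.2 to 15.8 and 14.2 (−0.86 ± 0.10), and Col22a1, a collagen of tissue junctions, from 3.79 and 3.65 to 1.41 and 2.26 (−1.11 ± 0.20). Col13a1 (−0.87) and Col2a1 (−0.65) fell from adult levels of 1.58 to 3.0 CPM, but each had 0 calls in separate fits of the 5 regions where it was tested. The HY held 370 and 446 of 2376 and 2695 neural spots in adult sections and 619 and 830 of 3097 and 2938 in aged ones. The part of this difference in the pooled calls was not tested.

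Those that rose were members of low level, at most 2.04 CPM in an aged section. Col6a6, a minor type VI chain, had 0.609 and 0.644 CPM in the aged neural zone against 0.135 and 0.226 in the adult (1.68 ± 0.36, adjusted p = 0.00258), Col6a5 0.788 and 0.621 against 0.248 and 0.316, Col4a4 0.713 and 1.02 against 0.406 and 0.338, and Col10a1, a hypertrophic cartilage collagen, 0.238 and 0.452 against 0.181 and 0.0902. Col5a3, a minor type V chain, was higher at 1.47 and 2.04 against 0.790 and 1.13. With the detection filter, which removes genes found in few spots, the count over both directions was 4 in place of 13. The calls lost with it were all those that rose and, among those that fell, Col1a1, Col3a1, Col22a1, Col13a1 and Col2a1, while Col27a1 was gained. Col4a1 (0.09) and Col4a2 (−0.11) gave values near 0 in this zone. Markers of meningeal fibroblasts were lower here (7 of 11), as were 3 of 6 endothelial, 5 of 10 choroid plexus and 4 of 5 oligodendrocyte markers, and their part in the collagen result was not tested.

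Regional fits showed where these changes lay. In aged sections 26 of 40 members were called in at least 1 region, 12 higher and 16 lower with Col5a2 and Col6a1 in both counts, beside 45.2% of all genes called (26.4% higher, 20.4% lower). Members called lower numbered 6 of 38 in the CTX (4.67% of all genes there), 10 of 33 in the HP (6.06%), 7 of 38 in the TH (7.36%), 5 of 37 in the HY (4.93%) and 2 of 24 in the STR (6.14%). Called higher were 2 in the CTX (7.94%), 1 in the HP (6.22%) and 1 in the HY (6.61%). No member was called in all 6 regions. Col1a1 was lower in 5 of 6, the STR being the exception, with log2 changes of −0.91 to −1.37. Col3a1 was lower in the CTX, HP, HY and FT (−1.03 to −1.67), and Col1a2 in the CTX, HP, HY and STR (−0.60 to −1.32). DESeq2 called 17 members and the detection filter left 13. Marker lists moved in these regions as well, with 5 of 5 oligodendrocyte, 4 of 11 meningeal fibroblast, 3 of 6 pericyte and 3 of 6 endothelial markers lower in the aged HP, 8 of 10 choroid plexus and 5 of 11 fibroblast markers lower in the TH, and 8 of 8 choroid plexus markers tested lower in the CTX. The endothelial list did not move as a whole, since in the HP DESeq2 called 1 of its markers higher and 3 lower. In the HY, STR and FT 5 of 11, 2 of 9 and 5 of 11 fibroblast markers were lower, and in the FT 4 of 5 microglia and 3 of 5 astrocyte markers were higher. Their part in the collagen results was not tested.

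Col6a1, a chain of type VI collagen, showed opposite directions in different regions. In the TH it had 1.01 and 0.642 CPM in aged sections against 7.64 and 7.27 in the adult, a log2 change of −3.12 with a standard error of 0.27 (adjusted p = 1.8e-05). In the CTX it had 38.5 and 49.7 CPM against 25.4 and 33.0, a change of 0.59 ± 0.13 (adjusted p = 0.00301). Neither pair of groups overlapped. It was also lower in the HP (−1.09), HY (−0.92) and FT (−0.78), while the STR, where its level was highest, had 101 and 88.3 CPM against 66.6 and 83.9 and was not called (0.33). Regional differences in the change were not tested against each other, and neither was the part of the slide version in them.

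Col19a1 was lower in the aged TH at 2.40 and 3.61 CPM against 12.8 and 9.36 (−1.83, adjusted p = 0.00064), and also in the HY (−0.69) and FT (−0.78), with no call in the CTX (0.13). Col9a3 was lower in the CTX, at 5.41 and 5.77 against 14.5 and 12.3 CPM (−1.28, adjusted p = 2.4e-05). Col25a1 was higher in the HY, at 101 and 88.4 against 55.4 and 64.1 CPM (0.63, adjusted p = 0.00668). In that region its P21 values, 73.8 and 69.4 CPM, lay between its adult and aged values. The HY differed in makeup between ages. A cluster led by Hcrt, Pmch and Avp held 225 and 239 of 370 and 446 HY spots in adult sections. That cluster held 427 and 690 of 619 and 830 in aged sections and 522 and 461 of 699 and 606 at P21. The part of this difference in the HY results was not tested.

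In the FT of aged sections 9 of 36 members were higher and 6 lower, beside 18.4% and 12.5% of all 13744 genes. Neither count lay far from the share of all genes, and DESeq2 called 3 higher and 4 lower. Col5a3 rose to 6.77 and 10.4 CPM from 1.38 and 1.85 (2.41 ± 0.35, adjusted p = 1.03e-05) and Col27a1, a fibrillar collagen of cartilage, to 16.0 and 16.6 from 8.61 and 8.89 (0.91 ± 0.19, adjusted p = 0.000618). Col4a2 fell from 39.4 and 33.9 to 17.2 and 18.6 CPM (−1.02 ± 0.14, adjusted p = 4.45e-06) and Col4a1 from 22.4 and 24.8 to 14.3 and 14.2 (−0.71 ± 0.15, adjusted p = 0.000443). The aged and adult sections did not overlap in these 4 genes. Also higher were Col14a1 (1.58), Col4a6 (1.57), Col24a1 (1.55), Col6a3 (1.36), Col20a1 (1.32), Col5a2 (1.0) and Col4a5 (0.89), from adult levels of 0.503 to 4.13 CPM. The FT differed in makeup, however, since a cluster led by C4b, Klk6 and Serpina3n held 293 and 276 of 438 and 384 FT spots in aged sections but 16 and 29 in adult and 10 and 2 at P21. The part of this shift in the FT result was not tested.

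For the aged comparison the interaction was called for 1 of 43 members, beside 2.04% of all 16019 genes (1.35% higher, 0.687% lower). Col6a1 fell in the meningeal zone and had 25.6 and 29.8 CPM in the aged neural zone against 20.8 and 22.2 in the adult, a log2 difference of −0.98 with a standard error of 0.24 (adjusted p = 0.0327). Without adult section 1 or aged section 2 the count was 0. With the outermost ring and the interior in place of the clusters Col6a1 was not called (−0.38, adjusted p = 0.541) and 2 other members were, Col1a2 (1.48, adjusted p = 0.00102) and Col1a1 (1.13, adjusted p = 0.0434). Of 11 fibroblast markers, 5 were called with a more positive change in the meningeal than in the neural zone, and their part was not tested.

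In none of these age or interaction fits was a call made for Col12a1, Col28a1, Col7a1, Col4a3, Col6a4 or Col17a1. Col12a1, a fibril-associated collagen of tendon and skin, had 2.01 to 2.81 CPM in the neural zone and 4.67 to 9.30 in the meningeal zone and was higher at the section edge (0.81, adjusted p = 0.0063). Col7a1, the anchoring fibril collagen of skin, had 0.423 to 0.926 CPM in the neural zone, and Col4a3, a chain of the kidney filter's basement membrane, at least 0.587 in each section.

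Over the whole sections, 29 of the 44 members reached 2 CPM, and their highest mean level lay in the meningeal zone for 15, the choroid plexus for 5, the HY for 3, the CTX and FT for 2 each and the STR and TH for 1 each. The choroid plexus, which makes cerebrospinal fluid, held 13 to 72 spots per section. Col9a3 had 351 and 334 CPM there at P21, 519 and 644 in adult and 634 and 602 in aged sections. Col8a2 had 115 and 115 CPM at P21, 144 and 155 in adult and 257 and 195 in aged sections, and Col8a1, its partner in the type VIII network, ran from 103 to 234 CPM. Col23a1 had 124 and 108 CPM in the P21 choroid plexus, 7.88 and 4.86 in the adult and 14.0 and 7.36 in the aged. The choroid plexus entered no fit, so these values are a description and carry no test, and adult section 2 held 13 of its spots.

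**Figure D5:**
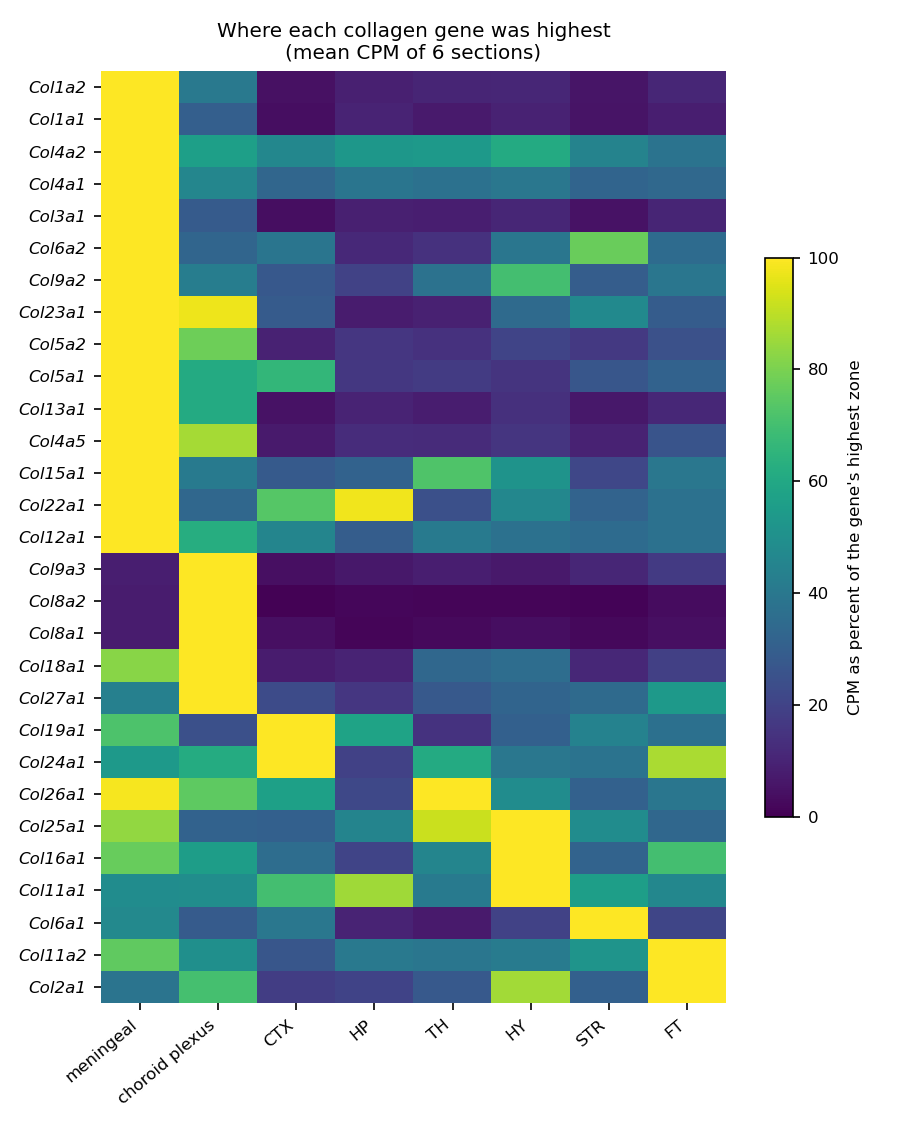
Mean CPM over 6 sections of the 29 collagen genes with at least 2 CPM over whole sections, in 8 zones (columns), each gene (row) as percent of its own highest zone, with brighter shades for higher values. Col1a1, Col1a2 and Col3a1 are highest in the meningeal zone (129, 224 and 86.5 CPM), Col9a3 in the choroid plexus (514 CPM), Col6a1 in the STR (86.5 CPM) and Col19a1 in the CTX (48.1 CPM).

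Several members had their highest mean level in a neural region. Col19a1 averaged 48.1 CPM in the CTX, Col6a1 86.5 in the STR, Col11a2 57.4 in the FT, Col26a1 11.4 in the TH and Col25a1 75.4 in the HY. At P21, however, the meningeal values of Col25a1 given above were higher than those of the HY. These zones were not drawn with collagen genes. The deposited Moran's I, a score of how far a gene's level resembles that of neighbouring spots, was highest by median over sections for Col25a1 (0.2685), Col8a2 (0.2238), Col23a1 (0.1849) and Col9a3 (0.1811). For Col6a1 it was 0.1784 and 0.1301 at P21, 0.1584 and 0.1659 in adult and 0.4375 and 0.5011 in aged sections, where the 90th percentile of all genes was also higher (0.2233 and 0.2533 against 0.09467 to 0.1348 in the others).

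Genes that make, cut or bind collagen were taken as 3 lists. In the P21 meningeal zone 3 of 27 synthesis and processing genes tested were higher and 1 lower, beside 4.63% of all genes called there in either direction. Higher were Sparc, a collagen-binding secreted protein (1.16, adjusted p = 4.43e-05), Plod1, a lysyl hydroxylase (0.67), and Serpinh1, the collagen chaperone (0.66), and lower was Pcolce, which promotes procollagen cleavage (−0.65), while the oxidase Loxl2 was not called (0.79, adjusted p = 0.332). Of 9 turnover genes 2 were higher and 1 lower, namely Mmp2, a gelatinase (1.56), Mmp15 (1.0) and Mrc2, an endocytic collagen receptor (−0.94). Of 8 collagen receptor genes edgeR and DESeq2 called 0 (1 lower at an unadjusted p under 0.05). DESeq2 called 1 synthesis gene higher and 1 lower and 1 turnover gene higher.

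In the P21 neural zone 7 of 30 synthesis genes were higher and 1 lower, beside 8.19% of all genes called in either direction, with Lox, the collagen cross-linking oxidase, up by 2.06 (adjusted p = 0.00151), Loxl2 by 1.72 and Sparc by 1.15. Of 13 turnover genes 3 were higher, which were Ctsk, a collagen-degrading cathepsin (0.92), Mmp2 (0.70) and Mmp15 (0.62), and of 8 receptors 1, the integrin subunit Itgb1 (0.70).

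In the aged meningeal zone 3 of 27 synthesis genes were higher and 1 lower, beside 12.6% of all genes called. The lower one was Loxl1 (−1.18), and the highest change was that of P4ha1, a proline hydroxylase (0.98), while Loxl2 was not called (−1.31, adjusted p = 0.156). Of 9 turnover genes 3 were lower, among them Mrc2 (−1.19) and Mmp15 (−1.13), and of 8 receptors 1, Itga1 (−0.80), an integrin subunit for collagen. DESeq2 called 1 synthesis gene higher, 2 turnover genes lower and 0 receptors (2 lower at an unadjusted p under 0.05 with edgeR).

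In the aged neural zone 2 of 30 synthesis genes were higher, Lox (2.13, adjusted p = 0.000409) and P4ha1 (0.94), and 2 lower, Pcolce (−1.16, adjusted p = 7.62e-05) and P3h4 (−0.60), beside 27.5% of all genes called. Of 13 turnover genes 3 were higher, which were Timp1, a protease inhibitor (2.38), and the collagenases Mmp8 (2.11) and Mmp13 (1.21). The 1 lower was Mrc2 (−0.75), and DESeq2 called 1 higher and 1 lower. Over all genes 22.8% were higher and 4.65% lower, so 3 of 13 higher is near the share of all genes. Of 8 receptors Itga10 was higher (0.71) and Itga1 lower (−0.69).

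At the section edge 10 of 29 synthesis genes were higher than in the interior and 1 lower, Adamts3, a procollagen protease (−0.63), where 9.46% of all genes were higher. The largest changes were those of Pcolce (2.47), Lox (1.88) and Loxl1 (1.59). Of 10 turnover genes 5 were higher, with Mrc2 (2.36), Mmp2 (1.19) and Mmp14 (1.16) the largest, and of 8 receptors 4, with Ddr2, a receptor kinase for fibrillar collagen (2.21), Itga10 (1.53) and Itga11 (1.17) the largest.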

How the data were processed

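The spatial libraries were aligned and counted by the authors with Space Ranger (version 2.0.0 for the P21 and adult sections and 3.1.1 for the aged sections per the file headers, 2.1.0 per the labels, which also name Seurat 5.1.0), on build mm10. The deposited matrices held raw UMI counts per gene and spot, and a deposited Moran's I score per gene was used as given. Spots with at least 250 genes and 500 UMIs were kept.

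Counts were normalized, reduced to 10 principal components of 3000 variable genes and clustered with Leiden (leidenalg 0.10.2, resolution 0.6, 20 neighbours, 19 clusters), with 97 collagen and collagen pathway genes left out. The deposited data used here hold no spot labels, so clusters were named from marker panels (score of at least 0.2), and doublet calling was not applied because spots hold several cells. UMIs were summed per section and zone. Sums were tested with edgeR 4.0.16 in R 4.3.3 (quasi-likelihood, TMM, genes kept by filterByExpr, Benjamini-Hochberg over all genes). The age fits used all 3 ages of a zone without a block, while edge and interaction fits used 12 sums with the section as block. Standard errors are the log2 change divided by the root of F. There were 2 sections per age, labelled as biological replicates. In the age fits p-values measure the spread between sections of the same age, with 1 estimate for all 3 ages together. In the edge and interaction fits they measure how the difference between the 2 sums of a section varied from section to section. The alternatives were DESeq2 1.42.0, plain library sizes, no filter, the detection filter of the study's methods (10% of spots), thinned UMIs, the replicate number as a block, each section left out, 20 principal components, and rings of spots.

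Named with values are members called in any fit or among the 3 highest of a class in a zone, and for pathway lists the 3 largest changes, of which some that were not called are left out and to which some called genes were added after their values were seen. The members and lists were chosen with earlier results of these data known. Spot depth was 12074.5 to 25535 UMIs in the median. Barcodes name slide positions, so sections of one slide version share 2607 to 3363 of them per pair, and none are shared between versions.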

Additional observations from a re-analysis of the deposited data

Results flagged for a closer look

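For 4 collagen genes an interaction test gave a different change with age in the meningeal and in the pooled neural zone (edgeR, adjusted p under 0.05), and none of these 4 differences was called with the outermost ring and the interior in place of the clusters. Values are the meningeal minus the neural log2 change. At P21 vs. adult, where 0.562% of all genes were called, the difference was −1.82 for Col8a2, −0.95 for Col11a2 and −0.64 for Col1a2. In aged vs. adult, where 2.04% of all genes were called and 1 of 43 members is near that share, it was −0.98 for Col6a1.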

How the results depend on the processing

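The 11 meningeal calls at P21 numbered 10 to 11 with 1 section left out. The 7 aged meningeal calls became 2 with DESeq2, 4 with thinned UMIs, 0 with the outermost ring and 3 to 6 with 1 section left out, and in the ring Col9a3 reversed to 0.16. The 19 neural calls at P21 became 11 with the detection filter and 12 to 19 with 1 section left out (12 without P21 section 1), and the 13 aged ones became 4 and 10 to 13. The 3 interactions at P21 became 1 with DESeq2, 5 with no filter, 1 with 20 principal components, 0 with rings and 1 to 7 with 1 section left out (1 without P21 section 2, 7 without either aged section). The 1 aged interaction became 0 with DESeq2, 2 with no filter, 3 with 20 principal components, 2 with rings and 0 to 1 with 1 section left out (0 without adult section 1 or aged section 2). The 21 edge calls became 10 with the detection filter and 21 to 23 with 1 section left out. The 23 regional members at P21 became 14 with that filter and 11 to 26 with 1 section left out (11 without P21 section 1, 13 and 15 without adult sections 1 and 2), and the 26 aged ones became 17 with DESeq2, 13 with the filter and 20 to 30. The detection filter tests fewer genes, and otherwise the cause was not tested. For the single changes called in the main fits there were 2459 alternative values. Of these, 2067 kept direction and side of the threshold, 391 kept direction alone and 1 reversed. A gene that an alternative filtered out gave no value there, so its lost call is not in this tally. Direction was counted whatever the size of the change. Of 44 zone ratios, 9 moved by more than their SD with 20 principal components and 19 with rings.

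With the replicate number as a block, the counts were 11 and 6 in the meningeal zone (P21 and aged), 19 and 12 in the neural zone and 21 and 26 over regions. The numbers did not pair the sections, with correlations of same-numbered deviations of −0.22 to 0.022, and the edge and interaction fits already held the section as a block. In the meningeal zone, with 1463276 to 3009996 UMIs per section against 35501251 to 88508810 in the neural zone, 14 members were not tested.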
